A study of Mus musculus with 18 samples.

Results

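The regions described here are distal ATAC-seq peaks that were more open in macrophages given both IL-10 and LPS than in macrophages given LPS alone or left unstimulated. A peak was selected where its mean level over 3 libraries was 2 CPM or more with LPS + IL-10 and was at least 1.8-fold both the LPS mean and the unstimulated mean. CPM is the usual depth-scaled count, here the count of a peak relative to the total count of its library in all peaks. The selection found 1219 of the 157614 distal peaks of the series (0.773%), and 1.89% of the 64643 distal peaks that reached 2 CPM with LPS + IL-10. The peaks were split by whether IL-10 alone also raised them at least 1.8-fold over unstimulated cells: 98 were opened by IL-10 alone and 1121 were not. The LPS + IL-10, LPS and unstimulated levels therefore chose the peaks, and the IL-10 level placed them in a set, so these values are given as a description without a test. The split moved with the scaling of the unstimulated libraries: with TMM-scaled CPM, 195 of 1367 selected peaks were opened by IL-10 alone.

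IL-10 is an anti-inflammatory cytokine that macrophages both make and sense. Its receptor activates the kinases JAK1 and TYK2, which phosphorylate the transcription factor STAT3, and STAT3 dimers bind a palindromic DNA motif at genes such as Socs3. LPS, a component of the outer membrane of Gram-negative bacteria, signals through TLR4 to NF-kappaB, AP-1 and, by way of interferon, IRF and STAT factors. Distal accessible regions are candidate enhancers, where such signal-dependent factors bind beside the lineage factors of the macrophage, among them PU.1 and C/EBP proteins.

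Bone marrow-derived macrophages (BMDMs) came from 3 Il10-/- mice of the C57BL/6J background, 12-week-old males, so no library here comes from cells with an intact Il10 gene and IL-10 was supplied only as recombinant protein. The 6 conditions, each with 1 library per mouse, were unstimulated cells, 500 nM (+)-JQ1 alone, 10 ng/mL IL-10 alone, 50 ng/mL LPS, LPS + (+)-JQ1, and LPS + IL-10. Each treatment lasted 12 hours before LPS or PBS was added for another 4 hours, and unstimulated cells stayed untreated over the same 16 hours. (+)-JQ1 displaces BET proteins from acetylated histones and is present here only as a pair of conditions that the selection did not use. Replicates 1, 2 and 3 are called mice 1, 2 and 3 here, although no source used states that a number stands for the same mouse in every condition. Total counts in peaks were between 12020526 and 25908198 per library. Replicate 1 was sequenced in lane 5 and replicate 3 in lane 6, while replicate 2 was in lane 5 without LPS and in lane 6 with LPS, so that the LPS and LPS + IL-10 libraries of a number always shared a lane. Of the 7 macrophage genes examined, 6 had a promoter peak, with median levels between 13.2 and 38.2 CPM. Promoter peaks of other cells were also present, at 1 of 4 T cell genes (0.714 CPM), 2 of 4 B cell genes (up to 7.64 CPM), 3 of 4 neutrophil genes (up to 26.7 CPM), 2 of 3 fibroblast genes (up to 22.9 CPM) and 3 of 3 endothelial genes (up to 11.8 CPM), and their part in the results was not tested. The promoter of Il10 itself held a peak of 3.20 to 6.94 CPM over the libraries, which does not check the deletion because no wild-type library was compared. A higher count in such bulk cultures can come from more cells with an open region or from a more open region in each cell, and the 2 cannot be told apart.

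The 2 sets of selected peaks were read for sequence motifs, as a description without a test. The central 300 bases of each peak were read from the mm9 genome on both strands for STAT (TTCNNNGAA), a stricter STAT form that is a subset of it (TTCCNGGAA), AP-1 (TGANTCA), C/EBP (TTGCNNAA), IRF (GAAANNGAA), PU.1 (GAGGAAGT) and the kappaB consensus. Among the 98 peaks opened by IL-10 alone, 22 (22.4%) held the STAT motif and 8 (8.16%) its strict form, against 9.03% and 0.937% of all distal peaks. Among the 1121 peaks not opened by IL-10 alone these shares were 11.5% and 0.981%. C/EBP motifs, in contrast, were found in both sets, at 23.5% and 24.1% against 13.1% of all distal peaks. The windows printed here show the plus strand around the motif, which is in capitals. The first 4 are the peaks opened by IL-10 alone that hold the strict STAT motif in the centre and have the highest ratio of IL-10 alone to unstimulated among such peaks. The next 2 lie in the peak between Il4ra and Il21r, where the strict motif lies at -907 bases from the centre, and in the peak near Socs3, where a STAT motif lies at -76 bases. The last 3 show C/EBP motifs in named peaks not opened by IL-10 alone.
Sfxn5 intron, chr6:85241059-85241159: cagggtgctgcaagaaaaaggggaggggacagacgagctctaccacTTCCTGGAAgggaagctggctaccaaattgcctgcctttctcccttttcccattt
Intergenic, 7308 bases from the Nsmce1 start, chr7:132642285-132642385: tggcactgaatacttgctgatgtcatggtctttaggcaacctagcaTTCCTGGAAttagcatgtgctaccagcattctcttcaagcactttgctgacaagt
Nrg1 intron, chr8:33091347-33091447: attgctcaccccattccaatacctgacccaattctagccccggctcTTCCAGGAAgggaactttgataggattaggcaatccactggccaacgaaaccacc
Intergenic, nearest gene Runx1, chr16:92868932-92869032: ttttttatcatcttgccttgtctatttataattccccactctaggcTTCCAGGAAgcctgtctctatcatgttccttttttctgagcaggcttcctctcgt
Between Il4ra and Il21r, chr7:132726252-132726352: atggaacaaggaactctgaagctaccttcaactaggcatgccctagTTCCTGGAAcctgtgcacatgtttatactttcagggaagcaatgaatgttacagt
Near Socs3, chr11:117827008-117827108: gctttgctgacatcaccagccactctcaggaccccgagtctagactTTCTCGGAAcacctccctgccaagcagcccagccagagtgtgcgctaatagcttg
Near Nfil3, chr13:53081153-53081253: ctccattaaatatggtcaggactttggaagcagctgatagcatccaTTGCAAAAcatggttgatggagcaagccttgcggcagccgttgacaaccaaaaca
Il1r2 intron, chr1:40148139-40148239: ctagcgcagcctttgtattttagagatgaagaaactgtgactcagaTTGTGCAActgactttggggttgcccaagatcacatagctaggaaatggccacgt
Intergenic, nearest gene Lrig2, chr3:104360772-104360872: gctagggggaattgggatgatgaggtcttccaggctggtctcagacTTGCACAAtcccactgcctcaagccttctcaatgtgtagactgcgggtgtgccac

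At the first 4 printed peaks, which were chosen by their rise with IL-10 alone, the mean levels stayed near the IL-10 level when LPS was added. The Sfxn5 intron peak had 2.57 CPM in unstimulated cells, 1.96 with LPS, 8.38 with IL-10 alone and 6.64 with LPS + IL-10. Near Nsmce1 the means were 3.19, 2.01, 10.2 and 7.78 CPM in the same order, and in the Nrg1 intron they were 3.45, 2.99, 10.4 and 9.09 CPM. Near Runx1, which encodes a transcription factor of blood cells, they were 3.78, 3.03, 7.48 and 8.11 CPM. Of the strict-motif peaks of this set that are not printed, those with nearest genes Gm17544 and Nampt rose further with LPS. They had 1.94 and 1.62 CPM with IL-10 alone and 3.11 CPM each with LPS + IL-10. Those with nearest genes Rnf32 and Armc9 had 2.14 and 23.7 CPM with IL-10 alone and 2.05 and 24.4 CPM with LPS + IL-10.

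Across the 1219 selected peaks, the median of the mean levels was 2.02 CPM in unstimulated cells, 2.17 with IL-10 alone, 2.11 with LPS alone and 5.09 with LPS + IL-10. The median ratio of LPS + IL-10 to LPS was 2.24 and that to unstimulated cells 2.33, values that the selection fixed to be at least 1.8. Neither agent alone gave a comparable shift: the median ratio to unstimulated cells was 1.07 for IL-10 and 1.03 for LPS, against 0.933 and 0.922 over the distal peaks at 2 CPM or more with LPS + IL-10. LPS alone changed 1117 of the 1219 peaks by less than 1.8-fold, raised 60 by that much or more and lowered 42. Over the distal peaks at 2 CPM or more with LPS + IL-10, 7.48% were raised that much. The selection needed LPS + IL-10 to be 1.8-fold the LPS level, so the LPS ratios and counts are a description only. The 3 LPS + IL-10 libraries lay above all 3 LPS and all 3 unstimulated libraries at 1177 peaks (96.6%), against 10.5% of the distal peaks at 2 CPM or more. The selection used these libraries, so nothing is read from the difference. Selected peaks took between 0.953% and 1.05% of the total count in the LPS + IL-10 libraries, 0.504% to 0.514% with IL-10 alone, 0.400% to 0.436% with LPS and 0.374% to 0.417% in unstimulated cells.

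**Figure D1:**
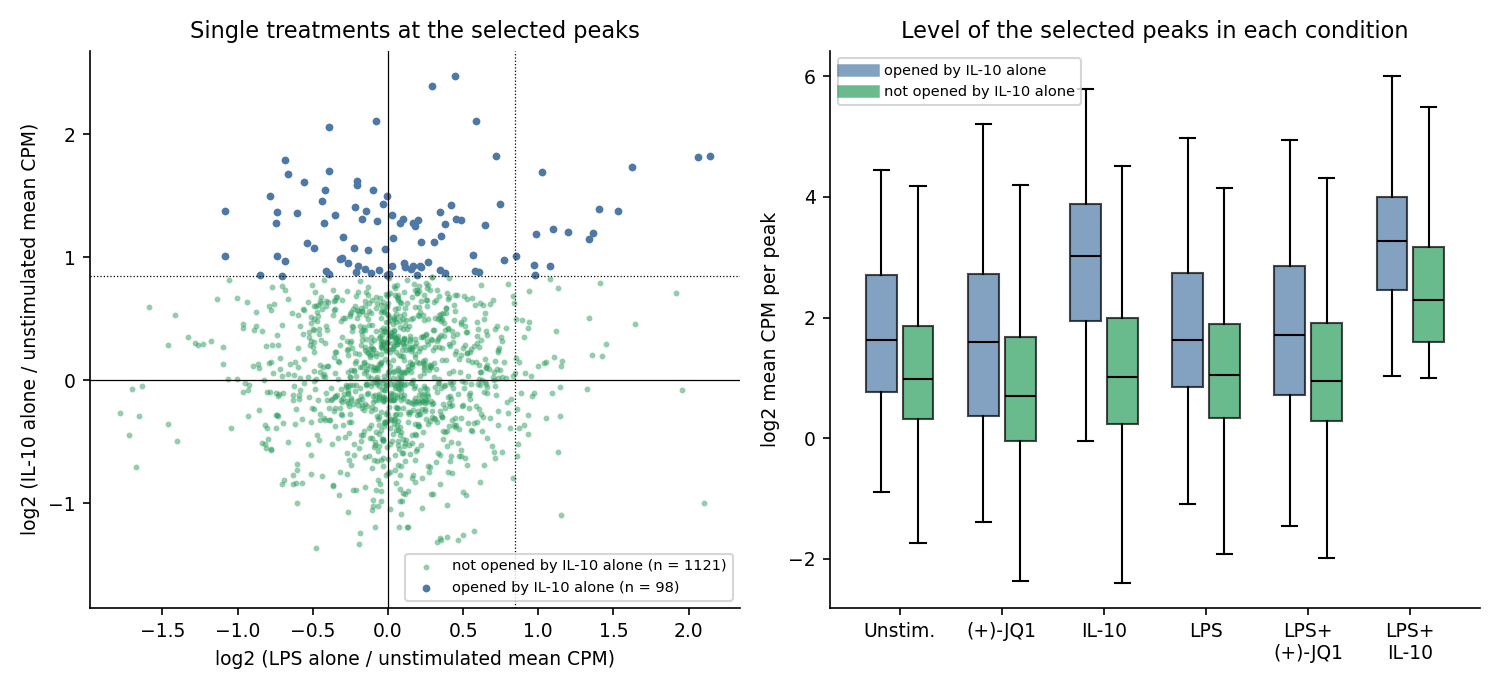
Left, each point is a selected peak, with the log2 ratio of LPS alone to unstimulated mean CPM on the x axis and of IL-10 alone to unstimulated on the y axis; dotted lines mark 1.8-fold, which defines the split on the y axis. Right, boxes show the median and quartiles of log2 mean CPM per peak in each condition for both sets, whiskers reach 1.5 times the interquartile range and peaks beyond them are not drawn. The 1121 peaks not opened by IL-10 alone have their highest box with LPS + IL-10, while the 98 others are high with IL-10 with or without LPS.

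In the peaks opened by IL-10 alone the median was 3.10 CPM in unstimulated cells, 8.08 with IL-10 alone, 3.09 with LPS and 9.65 with LPS + IL-10. In this set 77 of 98 peaks had their highest mean with LPS + IL-10, and in 78 the rise with both agents exceeded the sum of the rises with each one, in CPM. The selection and the split used these libraries, so both counts are a description. Read in 1 mouse at a time, 61.5% to 63.6% of all distal peaks at 2 CPM or more also exceeded that sum. With TMM-scaled CPM that background share was 41.8% to 49.8%. Of the peaks not opened by IL-10 alone, 1118 of 1121 had their highest mean with LPS + IL-10 and all 1121 exceeded that sum. The limits of the selection and the split fix the sum result in advance. They also place LPS + IL-10 above unstimulated cells, LPS and IL-10 alone, so only conditions with (+)-JQ1 could be higher. The median of these 1121 peaks was 1.98 CPM in unstimulated cells, 2.03 with IL-10 alone, 2.06 with LPS and 4.90 with LPS + IL-10.

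The Il4ra and Il21r locus on chromosome 7 was the clearest site opened by IL-10 alone. Il4ra encodes the alpha chain of the IL-4 receptor, and Il21r the IL-21 receptor. All 8 selected peaks within 25 kb of the Il4ra start were in this set, of 14 distal peaks there. The intergenic peak chr7:132726120-132728297 between both genes had 8.57, 12.0 and 9.44 CPM in the unstimulated libraries of mice 1, 2 and 3, and 13.2, 13.2 and 14.4 CPM with LPS. It had 53.9, 55.1 and 57.7 CPM with IL-10 alone, and 68.5, 63.7 and 49.7 CPM with LPS + IL-10. Both IL-10 conditions thus lay above all other libraries and overlapped each other. With (+)-JQ1 alone it had 8.97, 7.78 and 8.46 CPM, and with LPS + (+)-JQ1 12.9, 9.42 and 11.9 CPM. The neighbouring peak chr7:132728854-132729465 had 0.569 to 1.33 CPM in unstimulated cells, 1.01 to 1.27 CPM with LPS, 4.33 to 6.00 CPM with IL-10 alone and 6.45 to 8.80 CPM with LPS + IL-10. In the Il4ra intron, chr7:132712379-132714337 had 2.45 to 4.49 CPM in unstimulated cells, 2.25 to 2.60 CPM with LPS, 9.15 to 9.26 CPM with IL-10 alone and 14.4 to 16.7 CPM with LPS + IL-10, so that its LPS + IL-10 libraries also lay above those of IL-10 alone.

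Socs3 encodes a feedback inhibitor of JAK-STAT signalling. Its peak at chr11:117825774-117828493, which spans the 3′ end of the gene with its centre 3367 bases from the nearest start site, responded to each agent and was highest with both. The unstimulated libraries had 8.07, 7.53 and 7.16 CPM, those with IL-10 alone 24.7, 26.3 and 29.2 CPM, those with LPS 31.8, 30.7 and 32.4 CPM, and those with LPS + IL-10 65.4, 65.3 and 61.5 CPM. Here the joint level was 2.03-fold that of LPS and 8.45-fold that of unstimulated cells. Bcl3, an atypical member of the I-kappaB family, had 4 selected peaks. Its highest, chr7:20388255-20392949, had 12.1 to 14.5 CPM in unstimulated cells, 16.1 to 18.6 with LPS, 27.5 to 33.4 with IL-10 alone and 29.2 to 36.8 with LPS + IL-10. The intergenic peak chr11:100813148-100814125, 12782 bases from the Stat3 start, had 3.16 to 4.09 CPM in unstimulated cells, 4.24 to 5.19 with LPS, 8.68 to 10.3 with IL-10 alone and 8.99 to 10.9 with LPS + IL-10, and both IL-10 conditions overlapped. This Stat3 peak also had 6.24 to 7.22 CPM with (+)-JQ1 alone.

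Other named peaks of this set were intergenic. A peak 36149 bases from the start of Tgfbi, which encodes a matrix protein, had 0.398 to 1.16 CPM in unstimulated cells, 0.237 to 0.882 with LPS, 2.06 to 2.29 with IL-10 alone and 2.65 to 5.67 with LPS + IL-10. One 18201 bases from Sos1, an activator of Ras, had 1.36 to 2.99, 1.90 to 2.12, 3.75 to 5.26 and 8.14 to 10.2 CPM in the same order of conditions. The peak chr6:103312662-103313398, 147840 bases from the nearest start site (Chl1), had 1.52 to 1.75, 1.13 to 2.31, 3.31 to 4.17 and 7.28 to 8.99 CPM. At the peaks near Sos1 and Chl1, and at the one near Tgfbi, every LPS + IL-10 library exceeded every IL-10 library.

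**Figure D2:**
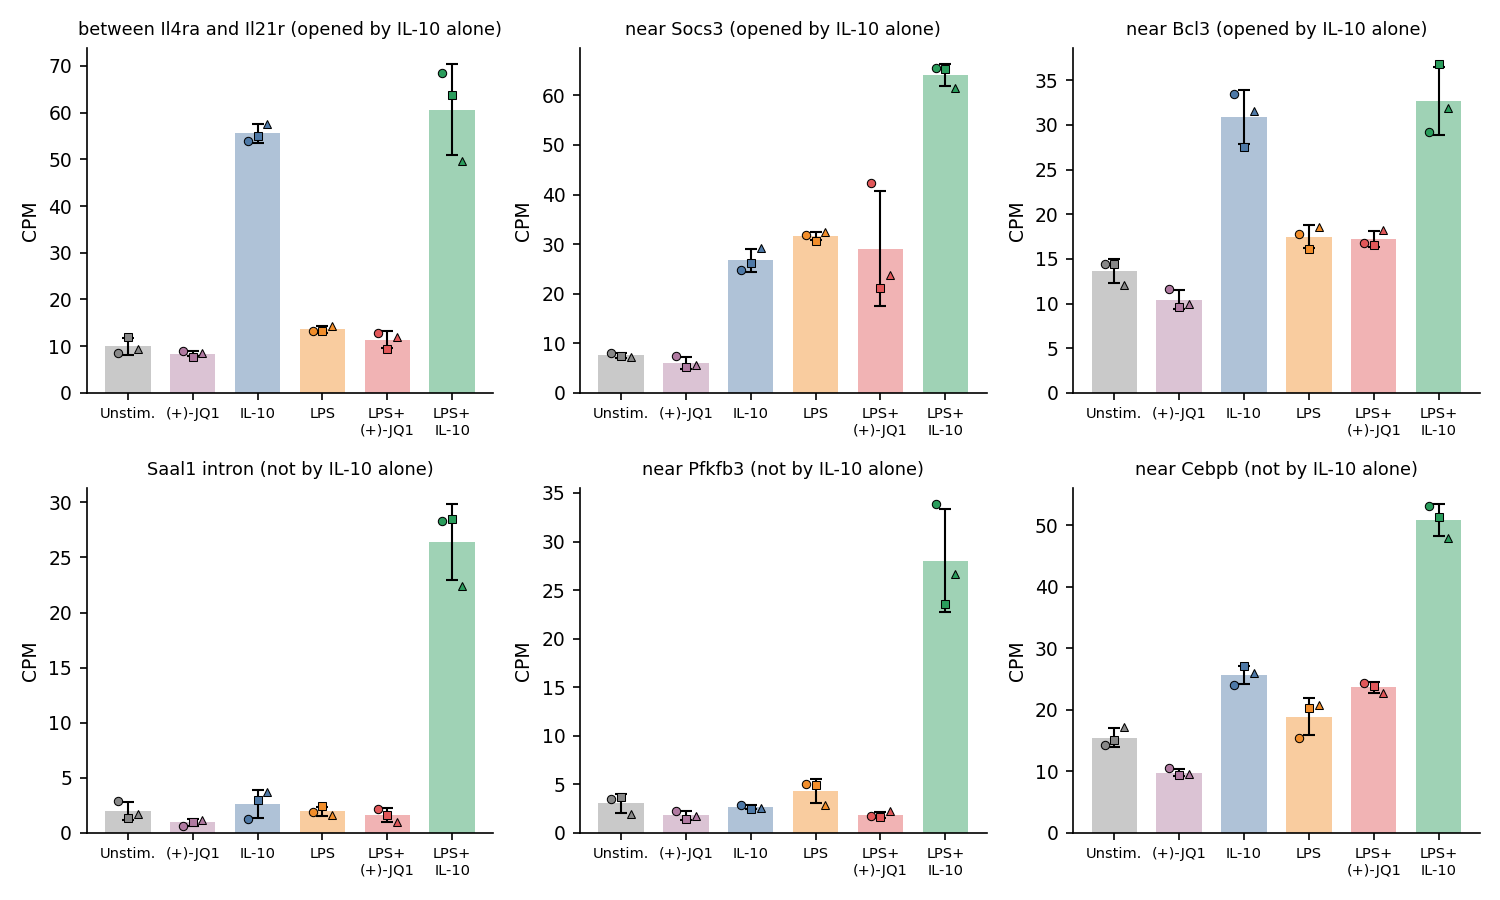
CPM of 6 named peaks in each condition; bars are means of 3 libraries, error bars are the SD, and circles, squares and triangles are mice 1, 2 and 3. In the upper row (Il4ra and Il21r, Socs3, Bcl3) IL-10 alone lies above unstimulated cells in every mouse. In the lower row (Saal1, Pfkfb3, Cebpb) the LPS + IL-10 libraries lie above every other library. The libraries without (+)-JQ1 also chose or split the peaks, so this is a description.

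The largest ratios of all selected peaks were at the serum amyloid A cluster and belonged to the set that IL-10 alone did not open. The Saa genes encode acute-phase proteins, and Saal1 is their neighbour. The peak chr7:53962488-53964108, in a Saal1 intron, had 2.91, 1.33 and 1.71 CPM in unstimulated cells, 1.22, 2.94 and 3.66 CPM with IL-10 alone, 1.91, 2.40 and 1.60 CPM with LPS, and 28.3, 28.5 and 22.5 CPM with LPS + IL-10. That is 13.4-fold the LPS mean and 13.3-fold the unstimulated mean. The next intronic peak, chr7:53958963-53960378, had 1.25 to 3.16 CPM in unstimulated cells, 1.66 to 2.65 with IL-10 alone, 2.01 to 2.73 with LPS and 21.7 to 25.9 with LPS + IL-10. The single agents overlapped unstimulated cells at both peaks, and both lay at 0.633 to 2.20 CPM in the 6 libraries with (+)-JQ1. Another peak of the cluster, chr7:53990054-53991455 near Saa4, behaved differently and was opened by IL-10 alone: 9.30 to 10.7 CPM in unstimulated cells, 22.1 to 28.4 with IL-10, 12.9 to 15.8 with LPS and 25.6 to 28.7 with LPS + IL-10.

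Pfkfb3 encodes an enzyme that sets the level of fructose 2,6-bisphosphate, an activator of glycolysis. The peak chr2:11389251-11391626, 25219 bases from the nearest Pfkfb3 start, had 3.49, 3.67 and 1.93 CPM in unstimulated cells, 2.87, 2.46 and 2.56 CPM with IL-10 alone, 5.07, 4.90 and 2.91 CPM with LPS, and 33.9, 23.5 and 26.7 CPM with LPS + IL-10. With LPS + (+)-JQ1 it had 1.64 to 2.24 CPM. An exonic peak of Pfkfb3 at chr2:11394628-11395276 went from 0.341 to 1.58 CPM in unstimulated cells to 4.32 to 7.21 CPM with both agents, and had 0.389 to 0.961 CPM with IL-10 alone. March1, a ubiquitin ligase that acts on MHC class II, had an intronic peak (chr8:68921588-68922153) at 0.341 to 1.25 CPM in unstimulated cells, 0.434 to 0.870 with IL-10, 0.686 to 0.949 with LPS and 3.53 to 5.49 with LPS + IL-10. The peak chr3:104360399-104361058, whose nearest gene Lrig2 is 44888 bases away, had 0.967 to 1.39, 0.732 to 0.876, 0.563 to 0.830 and 5.32 to 9.60 CPM in that order. In these 4 peaks no library of a single agent reached the LPS + IL-10 libraries. For LPS the naming of these peaks required this, so it is a description.

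Cebpb, which encodes the transcription factor C/EBP beta, had 1 selected peak within 25 kb, chr2:167519776-167522342. This peak, called the Cebpb peak here, lay nearest to the start of another gene, Tmem189, at 5737 bases. Its unstimulated libraries had 14.2, 15.1 and 17.2 CPM, those with IL-10 alone 24.1, 27.1 and 25.9 CPM, those with LPS 15.4, 20.3 and 20.8 CPM, and those with LPS + IL-10 53.1, 51.4 and 48.0 CPM. The IL-10 ratio of 1.66 fell short of the 1.8 that would have placed it in the other set. Msr1, a scavenger receptor gene, had 9 selected peaks within 25 kb and none was opened by IL-10 alone. Its highest peak, chr8:40713968-40717646, had 4.95 to 6.57 CPM in unstimulated cells, 3.23 to 4.44 with IL-10, 4.33 to 4.95 with LPS and 10.2 to 12.8 with LPS + IL-10. Il1r2, the decoy receptor for IL-1, had a peak at 2.39 to 3.66 CPM in unstimulated cells, 2.53 to 2.99 with IL-10, 2.38 to 4.92 with LPS and 5.74 to 8.72 with both. Near Nfil3, a transcriptional repressor, a peak had 9.65 to 14.7 CPM in unstimulated cells, 17.7 to 17.9 with IL-10, 12.4 to 14.2 with LPS and 24.4 to 24.9 with both. Near Fos, an AP-1 subunit gene, the values were 6.49 to 7.97, 7.46 to 8.58, 8.04 to 8.78 and 15.3 to 20.8 CPM, and at Slpi, a protease inhibitor gene, 3.24 to 4.11, 4.63 to 5.60, 2.60 to 2.99 and 6.92 to 10.8 CPM. The listed peaks at Dusp1, Il1rn and Ddit4 were low, with 1.69 to 4.10, 1.83 to 2.17 and 3.37 to 4.19 CPM in the LPS + IL-10 libraries.

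The highest peaks of this set were broad and already open. Near Pid1, which encodes a phosphotyrosine-interaction domain protein, chr1:84016462-84028674 had 23.1 to 31.4 CPM in unstimulated cells, 22.2 to 24.0 with IL-10, 27.7 to 40.6 with LPS and 58.3 to 69.1 with LPS + IL-10, against 10.0 to 12.6 CPM in the libraries with (+)-JQ1. Near Zfand5, a zinc finger gene, chr19:21355251-21363051 had 28.4 to 33.0, 27.7 to 31.4, 28.1 to 37.5 and 58.9 to 67.0 CPM. In Lilrb3, an inhibitory receptor gene, chr7:3663374-3668455 had 19.5 to 22.1, 31.4 to 35.3, 25.8 to 31.8 and 56.2 to 61.4 CPM. At the 1.8-fold limits, the selected peaks chr11:106751234-106751994 and chr2:11450561-11455030 had smaller ratios of 1.80036 and 1.80086, while chr14:31192343-31193837 and chr14:51782508-51783562, with 1.79976 and 1.79999, fell just outside.

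Some selected peaks lay close together. Joined over gaps of up to 25 kb, the 1219 peaks formed 752 groups, of which 614 were single peaks and 138 held 2 or more, with 605 peaks (49.6%) among them. Peaks of a run share a locus and are not independent of each other. The longest run was 62 of the 95 distal peaks over 260247 bases at Pid1 (chr1:84014039-84274286). Summed over these 62 peaks, unstimulated libraries had 251, 219 and 206 CPM, IL-10 libraries 176, 189 and 183 CPM, LPS libraries 225, 289 and 257 CPM, and LPS + IL-10 libraries 535, 529 and 530.4 CPM, 2.07-fold the LPS mean. The 33 other distal peaks of this span were also higher with LPS + IL-10, at 276 to 281 CPM in sum against 155 to 199 CPM with LPS, and so were its 8 promoter peaks within 25 kb, at 109 to 112 against 61.7 to 74.1 CPM. At March1 and 1810029B16Rik, 31 of 42 distal peaks were selected. Their sum was 99.0 to 124 CPM with LPS and 306 to 338 CPM with LPS + IL-10.

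Several runs covered genes with known roles in macrophages. Tnip3 had 14 of the 15 distal peaks of its run selected, Tgfbi 15 of 18, Pfkfb3 17 of 24, Msr1 14 of 26 and the Saa cluster 12 of 23. At Fcgr2b, which encodes the inhibitory receptor for IgG, 8 of 9 were selected and 4 of these were opened by IL-10 alone. The Fcgr2b run summed to 21.3 to 24.4 CPM in unstimulated cells, 44.2 to 49.4 with IL-10 alone, 30.7 to 42.1 with LPS and 100.2 to 113 with LPS + IL-10. In the Saa run, the 12 selected peaks summed to 36.4 to 37.6 CPM with LPS and 142 to 151 CPM with LPS + IL-10. The 12 promoter peaks there moved alike, from 39.1 to 45.5 CPM to 143 to 164 CPM. Promoter peaks were outside the selection but were read in the same libraries that picked the locus, so they are no separate evidence. At Il4ra and Il21r the 4 promoter peaks had 93.2 to 98.2 CPM in unstimulated cells, 94.6 to 105 with LPS, 199 to 217 with IL-10 alone and 239.7 to 263 with LPS + IL-10. At Tnip3 the promoter peaks differed less, with 46.5 to 52.8 CPM under LPS and 48.9 to 56.9 CPM under LPS + IL-10, which overlap.

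**Figure D3:**
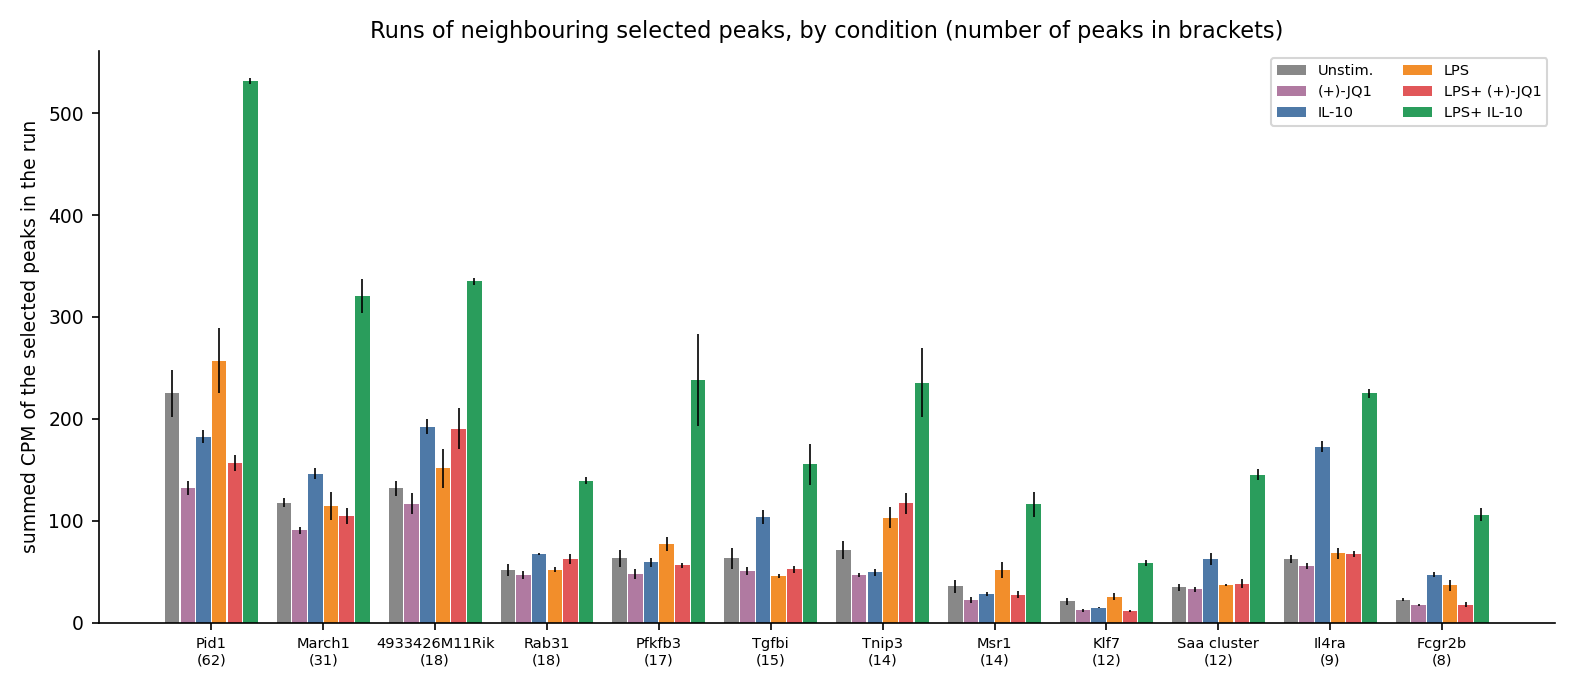
Summed CPM of the selected peaks of 12 runs (number of peaks in brackets) in each condition; bars are means of 3 mice and lines the SD. LPS + IL-10 is the highest bar in every run, and IL-10 alone is the second highest at March1, 4933426M11Rik, Rab31, Tgfbi, the Saa cluster, Il4ra and Fcgr2b.

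The 3 genes with the most selected peaks within 25 kb of a start site were Pid1 with 18, Fbxl5, an iron-sensing subunit of a ubiquitin ligase, with 14, and Pfkfb3 with 12. Of all selected peaks, 635 (52.1%) lay within 25 kb of a start site, against 63.3% of all distal peaks, and their median distance was 23539 bases against 15771. By the centre of the peak and the exons of protein-coding genes, 3.86% were exonic, 49.1% intronic and 47.0% intergenic, against 5.25%, 53.7% and 41.0%. Within 25 kb of the listed IL-10 response genes, 40 of 41 of which are in the annotation, 45 of 489 distal peaks were selected (9.20%), at 14 genes. The list was drawn up with earlier results of these data known. Near the 9 genes of the IL-10 receptor and its signalling, 6 of 169 were selected (3.55%), at Stat3 and Socs3, while Il10ra, Il10rb, Jak1 and Tyk2 had none. By comparison, 0.636% of distal peaks within 25 kb of any protein-coding gene were selected. Near the inflammatory genes, 25 of 26 of which are in the annotation, it was 2 of 291 (0.687%), and near the 12 interferon-stimulated genes 0 of 157. The 2 peaks near inflammatory genes were at the Ccl2 and Ccl7 chemokine genes (4.61 to 5.50 CPM in unstimulated cells, 8.88 to 10.3 with LPS, 16.8 to 19.4 with both) and at Ccl3 and Ccl4 (0.341 to 0.759, 0.649 to 1.84 and 2.22 to 3.68 CPM).

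Other motifs were counted in the same windows. Of the 5847 distal peaks at 2 CPM or more and 1.8-fold over unstimulated with LPS that were not selected, 14.9% held the C/EBP motif, 16.3% the IRF motif and 9.66% the kappaB motif. In the 1219 selected peaks these shares were 24.0%, 10.3% and 4.35%, near or below all distal peaks for IRF (10.5%) and kappaB (5.51%). AP-1 motifs were found in 16.9% of the peaks not opened by IL-10 alone and 17.7% of the peaks opened by LPS, but in 9 of the 98 (9.18%) opened by IL-10 alone, against 13.05% of all distal peaks. PU.1 motifs were at 4.84% against 4.95%. The C/EBP motif was concentrated at the centre of the selected peaks: 9.35% and 11.1% held it in the 100 bases on either side, and 5.25% to 7.06% in the steps farther out, against 4.13% to 4.88% in any step over all distal peaks. The selected peaks had a lower GC content, with a median of 43.7% against 46.7%. Within steps of GC content the C/EBP share was still higher, with 28.3% against 18.6% below 40% GC, 28.4% against 15.3% from 40% to 45%, 20.5% against 12.7% from 45% to 50%, and 13.02% against 9.07% above. These shares are counts of letters in windows and no test was made on them.

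**Figure D4:**
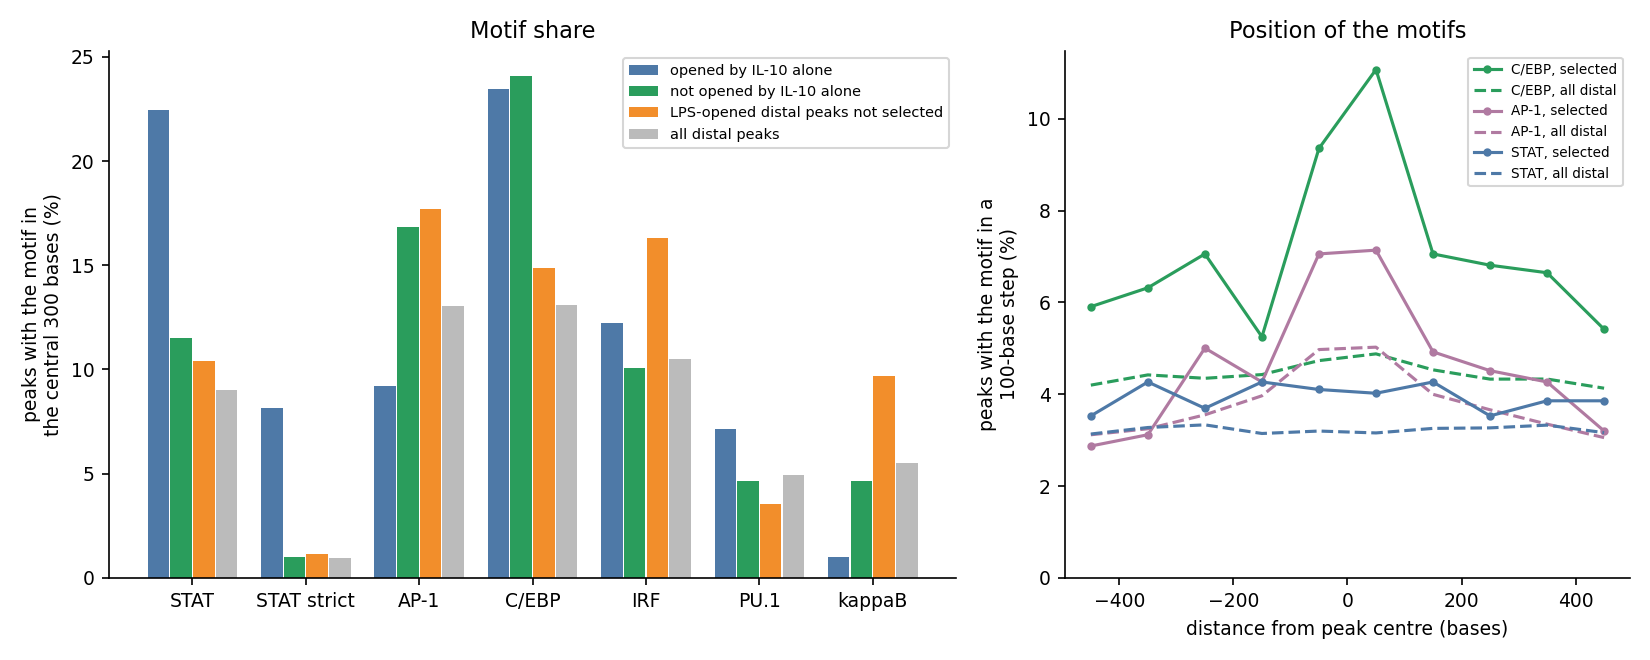
Left, percent of peaks with each motif in the central 300 bases for both sets of selected peaks, for distal peaks opened by LPS and not selected, and for all distal peaks. Right, percent of peaks with the C/EBP, AP-1 or STAT motif in 100-base steps around the peak centre, solid for the selected peaks and dashed for all distal peaks. The STAT share is highest in the set opened by IL-10 alone, and the C/EBP share of both sets lies above that of all distal peaks.

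Because the same libraries chose the peaks, the selection was repeated on the mean of 2 mice and read in the third. Of the 1334, 1593 and 1181 peaks so chosen, 88.7%, 91.1% and 97.2% were above both LPS and unstimulated cells in mice 1, 2 and 3, against 34.1%, 33.6% and 41.6% of all distal peaks at 2 CPM or more. The full limits of 2 CPM and 1.8-fold were met again by 47.7%, 36.3% and 52.6%, against 2.41%, 1.69% and 3.10%. The median ratio of LPS + IL-10 to LPS in the mouse left out was 2.31, 1.86 and 2.06. In that mouse 91.4% to 95.1% of the chosen peaks rose by more CPM with both agents than the sum of the single rises, against 61.5% to 63.6% of all. With TMM-scaled CPM these shares were 91.2%, 85.8% and 85.6% in mice 1, 2 and 3, against 41.8%, 44.1% and 49.8%. Of the 147, 122 and 124 peaks placed in the set opened by IL-10 alone, 76.9%, 89.3% and 96.0% had more CPM with IL-10 than without in the mouse left out, against 41.7%, 41.0% and 46.0%. This background moved with the scaling: with TMM-scaled CPM the shares were 85.7%, 91.7% and 94.8%, against 65.2%, 59.4% and 56.0%. With 1 library per condition in a mouse, these shares carry no test.

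Libraries with (+)-JQ1 took no part in the selection and allowed a test of LPS at these peaks, in the presence of the inhibitor. The quasi-likelihood test of edgeR was used with p-values adjusted over all peaks by Benjamini-Hochberg, and a call needed both an FDR below 0.05 and an absolute log2 fold-change above 0.5. In LPS + (+)-JQ1 against (+)-JQ1 alone, 151 of the 1219 selected peaks (12.4%) were called higher, against 5.92% of all distal peaks tested, and 30 (2.46%) were called lower, against 3.72%. Their median log2 fold-change was 0.17, and that of all distal peaks 0.01. All distal peaks include those below 2 CPM, which the selection left out. Among peaks with at least 10 counts in every library, 13.9% of 894 selected and 8.46% of 92856 distal peaks were higher. In that fit 2.91% and 5.55% were lower. The calls were uneven over loci, with 13 of the 14 peaks at Tnip3 and 11 of the 18 at 4933426M11Rik and Srsf5 called higher, and none of the 12 at Klf7 or the 12 of the Saa cluster. The number higher was 82 without mouse 1 (6.73%, against 3.98% of all distal peaks in that fit) and 99 without mouse 2 (8.12%, against 4.02%), and the number lower was 13 without mouse 2 (1.07%, against 2.05%).

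The largest rises in that comparison were at a pair of peaks near Sod2, the mitochondrial superoxide dismutase gene. The peak chr17:13217580-13219289 had 0.115, 0.942 and 0.495 CPM with (+)-JQ1 alone and 4.77, 3.23 and 3.44 CPM with LPS + (+)-JQ1, a log2 fold-change of 2.83 (SE 0.35, edgeR FDR 3.1e-10). Its neighbour chr17:13216522-13217252 had 0.099 to 0.188 and 0.973 to 2.35 CPM, a log2 fold-change of 3.32 (SE 0.52, edgeR FDR 4.8e-07). Without the inhibitor, LPS alone gave 3.46 to 4.57 CPM at the first of these and LPS + IL-10 6.26 to 12.8 CPM. The Socs3 peak rose from 5.15 to 7.36 CPM to 21.1 to 42.4 CPM, a log2 fold-change of 2.21 (SE 0.17, edgeR FDR 5.0e-21), and the Cebpb peak from 9.35 to 10.5 CPM to 22.7 to 24.4 CPM, a log2 fold-change of 1.23 (SE 0.15, edgeR FDR 3.5e-11). The largest falls were in an intron of Peli2, a ubiquitin ligase of the Toll-like receptor pathway, and near Sirpb1c. The Peli2 peak chr14:48792367-48794035 had 2.64 to 3.41 CPM with (+)-JQ1 alone and 0.819 to 1.27 CPM with LPS + (+)-JQ1, a log2 fold-change of -1.53 (SE 0.26, edgeR FDR 4.7e-06). The Sirpb1c peak chr3:15810796-15811409, at 0.495 to 1.32 against 0.147 to 0.425 CPM, had a log2 fold-change of -1.45 (SE 0.47, edgeR FDR 0.031) and lost its call at an FDR of 0.01, with the lane as a covariate, and without mouse 1 or mouse 2. The Saal1 intron peaks, at log2 fold-changes of 0.64 (SE 0.32, edgeR FDR 0.21) and 0.22 (SE 0.28, edgeR FDR 0.71), did not pass the test.

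**Figure D5:**
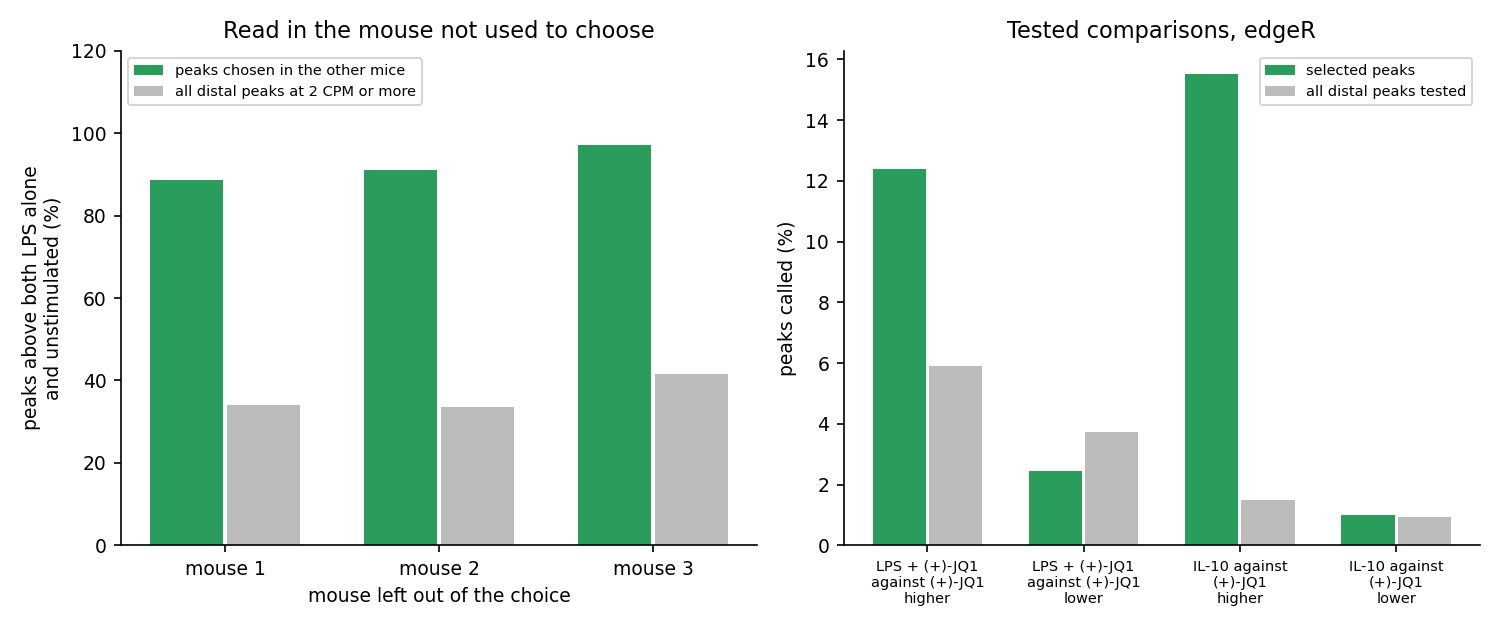
Left, percent of peaks above both LPS and unstimulated cells in the mouse left out, for peaks chosen in the other mice (88.7% to 97.2%) and for all distal peaks at 2 CPM or more (33.6% to 41.6%). Right, percent of selected peaks and of all distal peaks called higher or lower by edgeR in LPS + (+)-JQ1 against (+)-JQ1 and in IL-10 against (+)-JQ1; the selected peaks exceed the background in the higher direction in both.

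IL-10 alone was compared with (+)-JQ1 alone, since neither condition entered the selection. This comparison shares its control libraries with the previous one, and this difference holds any effect of the inhibitor as well. Of the 1219 peaks, 189 (15.5%) were called higher with IL-10 by edgeR, against 1.51% of all distal peaks, and 12 (0.984%) lower, against 0.939%. The median log2 fold-change was 0.28 over the selected peaks and 0.02 over all distal peaks. Among peaks with at least 10 counts in every library, 21.1% of 894 selected and 2.96% of 92856 distal peaks were higher. Without mouse 2 the number higher was 98 (8.04%, against 0.453% of all distal peaks in that fit), and without mouse 3 it was 125 (10.3%, against 0.737%). The number lower was 7, 2 and 7 without mouse 1, 2 and 3 (0.574%, 0.164% and 0.574%, against 0.632%, 0.187% and 0.472%). IL-10 levels defined the split, so the 74 calls among the 98 peaks opened by IL-10 alone and the 115 among the 1121 others are a description. Of these others 115 (10.3%) were higher and 12 lower. In CPM, the level with (+)-JQ1 alone was itself below unstimulated cells. The median ratio was 0.830 over the selected peaks and 0.852 over the distal peaks at 2 CPM or more. TMM factors, which the test used, were 1.04 to 1.24 in unstimulated libraries and 0.896 to 0.964 with (+)-JQ1 alone. Both ratios are therefore higher with TMM scaling, and they were not computed that way. Over 31 peaks at March1, none of them opened by IL-10 alone, 10 were higher with IL-10.

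At the Cebpb peak the log2 fold-change of IL-10 against (+)-JQ1 was 1.32 (SE 0.14, edgeR FDR 1.9e-11). At the first Saal1 peak it was 1.38 (SE 0.29, edgeR FDR 0.0009), a call that was lost without mouse 2 or mouse 3. The largest falls were near Pde1a and far from any gene on chromosome 1. The Pde1a peak chr2:79998790-79999413 had 1.78 to 2.08 CPM with (+)-JQ1 and 0.487 to 0.868 CPM with IL-10, a log2 fold-change of -1.61 (SE 0.34, edgeR FDR 0.0012). In unstimulated cells it had 0.569 to 0.759 CPM, which lies within the IL-10 range and below the (+)-JQ1 range. At chr1:100631247-100632440 the log2 fold-change was -1.54 (SE 0.44, edgeR FDR 0.03), and the call was lost at an FDR of 0.01 and without mouse 1 or mouse 2. This peak had 0.796 to 1.08 CPM in unstimulated cells, 0.693 to 1.07 with (+)-JQ1 and 0.195 to 0.412 with IL-10.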

How the data were processed

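ATAC-seq libraries of Il10-/- BMDMs were paired-end, and the authors used PEPATAC, with Bowtie2 alignment to mm9, MACS2 peaks per library, and classed peaks as promoter or distal with ChIPseeker. The deposited values are raw counts per library over the union of the peaks. The counting tool is not given in the sources used here. The 6 columns that match no sample were not used. CPM used the column sum over all 194284 peaks. The 2 comparisons on libraries outside the selection were tested with edgeR 4.0.16 (R 4.3.3; TMM, filterByExpr, quasi-likelihood fit of all 18 libraries, no block), tested on simulated data, and DESeq2 1.42.0 was an alternative. Depth was 12020526 to 25908198 counts per library and limits peaks near 2 CPM most.

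The selected peaks, gene lists and motifs were chosen with earlier results of these data known. Named peaks were, per set, the 6 with the largest smaller ratio among those at 4 CPM or more without overlap and the 3 highest, the highest peak near each listed gene, the 2 extremes each way per test and at the limits, and the 3 genes with most peaks. Peaks of 1 locus that this rule names are not reported here. The labels describe matched samples of 3 mice, without tying a replicate number to a mouse. Genes came from GENCODE on mm9; whether start positions of peaks count from 0 or 1 is not stated. Fragment positions, duplicates and reads outside peaks were not analysed here. P-values set a difference between 2 conditions against the spread within conditions, estimated over all 18 libraries from cells of 3 mice.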

Additional observations from a re-analysis of the deposited data

How the results depend on the processing

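The selection depended on its limits and, for the split, on the scaling. With 1.5-fold limits it held 3060 peaks, 411 of them opened by IL-10 alone, with 2-fold limits 713 and 55, and with 4 CPM 747. TMM factors were 1.04 to 1.24 in unstimulated libraries and 0.896 to 1.05 in the others, and TMM-scaled CPM put 195 of 1367 peaks in the IL-10-opened set in place of 98, 93 of them shared. Leaving out a mouse gave 1181 to 1593 peaks and 122 to 147 in that set. As paired values (replicate block), the geometric mean of ratios within replicate numbers gave 1275 and 108. With a 1.5-fold limit in the mouse left out, the mean share was 67.0% in place of 92.3%.

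Deviations from the group means correlated by 0.0079 on average over 45 pairs of samples with the same number and by -0.0040 over 90 other pairs. The replicate block gave 153 higher and 30 lower for LPS + (+)-JQ1 against (+)-JQ1, and 189 and 13 for IL-10 against (+)-JQ1, and changed no call of a named peak. At an FDR of 0.01 the numbers lower were 15 (1.23%, against 2.10% of all distal peaks) and 5 (0.410%, against 0.416%). Leaving out a mouse, with fewer libraries tested, gave 82 to 129 higher (6.73% to 10.6%) and 13 to 30 lower (1.07% to 2.46%) in the first comparison. In the second it gave 98 to 154 higher (8.04% to 12.6%) and 2 to 7 lower (0.164% to 0.574%). Over all distal peaks the shares higher were 3.98% to 4.69% and 0.453% to 1.11%, and the shares lower 2.05% to 2.44% and 0.187% to 0.632%. DESeq2, other scalings, filters, the lane as a covariate and a fit of 2 groups kept both higher counts within 1.5 times. No log2 fold-change of a named call changed sign, but 9 of 30 named calls were lost in some setting.

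Motif shares grow with the window: in the central 500 bases and the whole peak they were 19.03% and 39.8% for STAT, 23.5% and 45.2% for AP-1, 17.97% and 39.1% for IRF, 33.9% and 59.7% for C/EBP, 6.56% and 13.1% for PU.1 and 7.47% and 17.7% for kappaB, and 4.43% for strict STAT in the whole peak. For distal peaks at 2 CPM or more with LPS + IL-10 they were 15.1% and 42.6% for STAT, 19.6% and 48.7% for AP-1, 17.4% and 45.9% for IRF, 21.5% and 53.2% for C/EBP, 6.84% and 18.3% for PU.1, 8.83% and 27.2% for kappaB, and 5.94% for strict STAT in the whole peak. Over whole peaks the selected peaks were above this background for C/EBP and below it for the 6 others. Whole peaks are not matched for length, with a median width of 1144 bases for the selected peaks and 1575 for this background. In the central 500 bases the selected peaks were above it for STAT, AP-1, IRF and C/EBP, and below it for PU.1 and kappaB. Strict STAT was there at 1.89% against 1.61%. STAT was at 48.0% of whole peaks opened by IL-10 alone and 39.1% of the others.

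Within 10 kb and 100 kb of a start site lay 359 and 1073 selected peaks (0.579% and 0.750% of the distal peaks there). The shares were 11.02% and 4.63% near the IL-10 response genes, 5.48% and 1.56% near the receptor and signalling genes, 1.27% and 1.68% near the inflammatory genes, and 0 of 65 and 0 of 374 peaks near the interferon-stimulated genes.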
